A study of Mus musculus with 21 samples.

Results

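The respiratory chain subunits that are encoded in the nucleus were followed through all 7 sample groups of an RNA-seq study of mouse bone marrow-derived macrophages. The 43 members were a fixed set of gene symbols, of which 24 belong to complex I, 4 to complex II, 7 to complex III and 8 to complex IV, and each symbol was found once among the 50645 genes of the fatty acid table and the 50644 genes of the Western diet table. The rule sets no threshold on a measured value, although the list was drawn up with earlier results of these data known. All 43 had a value of at least 1 in every library. The cells came from C57Bl6/J mice with a donor age of 24 weeks and were grown in RPMI-1640 with 10 % FCS and L929 cell supernatant, which supplies the macrophage growth factor M-CSF. In the fatty acid table, chow donors gave 4 groups of 3 libraries: untreated cells (replicates 1 to 3), cells given LPS alone, cells given fatty acid before LPS, and cells given fatty acid with TAK242 before LPS. Fatty acid was palmitic and oleic acid (1:3) at 10 mM for the first 4 days. TAK242 (200 nM) blocks TLR4, the receptor for LPS. After washing, the cells were cultured to day 7 and given E. coli LPS at 100 ng/ml for 24 h. No group received fatty acid or TAK242 without LPS. In the Western diet table, 3 libraries were labelled as chow controls (replicates 4 to 6), 3 as Western diet and 3 as Western diet with LPS, and donors had been on the diet, high in fat, sugar and cholesterol, for 24 weeks. The labels do not say whether a replicate is an animal or a culture, so the p-values measure the spread between these libraries, which may be technical.

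The respiratory chain sits in the inner mitochondrial membrane. Complex I takes electrons from NADH and complex II, which is also the succinate dehydrogenase of the tricarboxylic acid cycle, takes them from succinate. Both pass them through ubiquinone to complex III, and cytochrome c carries them to complex IV, where oxygen is reduced. Complexes I, III and IV hold subunits from both genomes, while every subunit of complex II is encoded in the nucleus. Macrophages stimulated with LPS are known to shift towards glycolysis and to accumulate succinate, and succinate oxidation by complex II has been linked to their inflammatory state.

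Library sums lay between 321532 and 386023, and no read depth is given in the sources used here, so no counting interval is given. Some features of the values bear on all results. Of 1286 nuclear protein-coding genes with a single exon, 25 (1.94%) had a mean of at least 1 in the fatty acid table, against 8874 of 20506 genes with more exons (43.3%). On the mitochondrial genome the 12 genes of the plus strand had means of at most 5.93, and the minus-strand gene mt-Nd6 had a mean of 1095. Whether strand was used in counting is not given in the sources used here. The values of the 13 mitochondrially encoded genes are therefore not read as levels, and values are compared between groups for a gene rather than between genes. LPS genes followed the labels in the fatty acid table: the chemokine gene Ccl5 stood at 0.419 to 0.645 in untreated libraries and at 3495 to 6705 with LPS alone. They did not in the Western diet table, where Ccl5 was 7846, 13.7 and 10973 in the 3 libraries labelled Western diet and 0.463, 10.5 and 6905 in those labelled Western diet with LPS.

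Promoter sequences are shown for 5 members on which the results turn: the complex II subunits Sdha and Sdhb, whose ratio changed with LPS, and 3 complex IV subunits, of which Cox8a and Cox6a1 were lower after fatty acid and Cox5a was not. RefSeq windows of 300 bases around the gene's start (GRCm38.p6) were held for 33 of the 43 members. Cox4i1, Cox6c, Cyc1, Ndufa2, Ndufb9, Ndufs1, Sdhc, Uqcrb, Uqcrc2 and Uqcrq had none. Capitals mark matches, on either strand, to GCGC, 2 bases of any kind and GCGC (NRF1), CCGGAAG (ETS factors such as GABP), AAGATGGC (YY1) or CCAAT. NRF1, GABP and YY1 are known regulators of nuclear genes for mitochondrial proteins.
Sdha, chr13:74350191-74350490, minus strand: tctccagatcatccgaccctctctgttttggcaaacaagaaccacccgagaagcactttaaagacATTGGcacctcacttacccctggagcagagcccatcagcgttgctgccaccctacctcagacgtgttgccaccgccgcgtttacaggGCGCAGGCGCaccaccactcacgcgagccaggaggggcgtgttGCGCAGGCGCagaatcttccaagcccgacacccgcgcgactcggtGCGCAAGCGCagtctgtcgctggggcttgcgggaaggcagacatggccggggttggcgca
Sdhb, chr4:140961021-140961320, plus strand: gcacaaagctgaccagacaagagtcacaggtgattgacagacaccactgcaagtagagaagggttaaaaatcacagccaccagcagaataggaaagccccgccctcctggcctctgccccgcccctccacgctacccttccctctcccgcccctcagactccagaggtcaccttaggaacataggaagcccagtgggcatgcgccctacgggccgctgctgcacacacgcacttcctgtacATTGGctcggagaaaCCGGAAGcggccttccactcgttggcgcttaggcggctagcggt
Cox5a, chr9:57520982-57521281, plus strand: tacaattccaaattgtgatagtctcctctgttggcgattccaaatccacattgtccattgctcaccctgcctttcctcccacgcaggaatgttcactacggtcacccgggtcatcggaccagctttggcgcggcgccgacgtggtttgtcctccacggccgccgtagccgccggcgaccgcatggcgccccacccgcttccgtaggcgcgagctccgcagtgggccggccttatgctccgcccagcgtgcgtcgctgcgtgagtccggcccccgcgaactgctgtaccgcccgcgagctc
Cox8a, chr19:7217567-7217866, minus strand: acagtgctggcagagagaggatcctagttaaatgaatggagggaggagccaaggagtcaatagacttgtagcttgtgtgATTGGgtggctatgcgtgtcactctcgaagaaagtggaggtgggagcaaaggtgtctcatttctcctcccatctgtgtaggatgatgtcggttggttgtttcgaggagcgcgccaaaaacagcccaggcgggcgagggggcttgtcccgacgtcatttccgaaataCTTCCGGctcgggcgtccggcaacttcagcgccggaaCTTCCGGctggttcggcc
Cox6a1, chr5:115348909-115349208, minus strand: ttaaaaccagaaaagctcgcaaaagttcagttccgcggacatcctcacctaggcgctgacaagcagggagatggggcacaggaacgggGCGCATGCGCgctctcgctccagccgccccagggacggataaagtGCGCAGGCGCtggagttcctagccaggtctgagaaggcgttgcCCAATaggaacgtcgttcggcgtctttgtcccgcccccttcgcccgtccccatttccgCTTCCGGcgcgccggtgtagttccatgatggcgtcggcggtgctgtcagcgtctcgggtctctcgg
The window of Sdha held 3 NRF1 matches and 1 CCAAT match, that of Sdhb 1 ETS and 1 CCAAT match, and that of Cox5a none of the 4 motifs. Cox8a held 2 ETS matches and 1 CCAAT match, and Cox6a1 held 2 NRF1 matches, 1 ETS match and 1 CCAAT match. Over the 34 member windows (Ndufa5 has 2), the NRF1 letters were in 29.4%, against 6.22% of all 32851 windows and 8.57% of the 21262 of protein-coding genes. The ETS letters were in 26.5%, against 8.86% of all windows and 11.6% of those of protein-coding genes. In the same order, the YY1 letters were in 17.6% against 2.75% and 3.05%, and CCAAT in 32.4% against 37.4% and 38.2%. These are matches of letters only, and the members called lower after fatty acid include windows with each kind of match and windows with none.

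Mean deposited values of the 43 members over the 12 libraries of the fatty acid table ran from 4.45 (Uqcrfs1, the Rieske iron-sulfur protein of complex III) to 297 (Cox4i1, the common isoform of a regulatory subunit of complex IV), with a median of 58.5. The highest member of complex I was Ndufa3 (mean 97.3), that of complex II was Sdhb (mean 168) and that of complex III was Uqcrh (mean 139). Within a group of 3 libraries the median coefficient of variation of a member was 7.54% in the fatty acid table and 21.8% in the Western diet table. Summed over its 8 members, complex IV stood at 1523 ± 109 (SD, n = 3) in untreated cells, 1451 ± 43.1 with LPS alone, 1155 ± 172 with fatty acid before LPS and 1246 ± 107 with TAK242 added. Without fatty acid replicate 3, in which Cox6c was low, the mean after fatty acid was 1254, and the difference from LPS alone was -197 in place of -297. The complex I sum was 1532 ± 93.3, 1264 ± 46.3, 1142 ± 67.2 and 1164 ± 50.1 in the same order, and the complex III sum 569 ± 20.7, 513 ± 16.2, 459 ± 27.8 and 479 ± 39.8. The complex II sum had a different order, with 320.2 ± 20.02 untreated, 271 ± 39.2 with LPS alone, 299 ± 19.0 after fatty acid and 291 ± 11.8 with TAK242. After scaling between libraries, which sets the median ratio of all genes between libraries to 1, the complex IV sum was 1272 ± 135 untreated, 1583 ± 12.2 with LPS alone and 1199 ± 134 after fatty acid. The complex IV mean with LPS alone was thus below untreated as deposited and above it once scaled, while fatty acid was below LPS alone both ways. As deposited the first 2 groups overlapped, with untreated replicate 2 at 1397.2 below every LPS library (1402.5 to 1483.7). Untreated replicate 3 was high in Cox4i1, at 448 against 298 and 263 in replicates 1 and 2. In bulk samples like these, fewer cells of a type and less RNA per cell cannot be told apart.

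**Figure D1:**
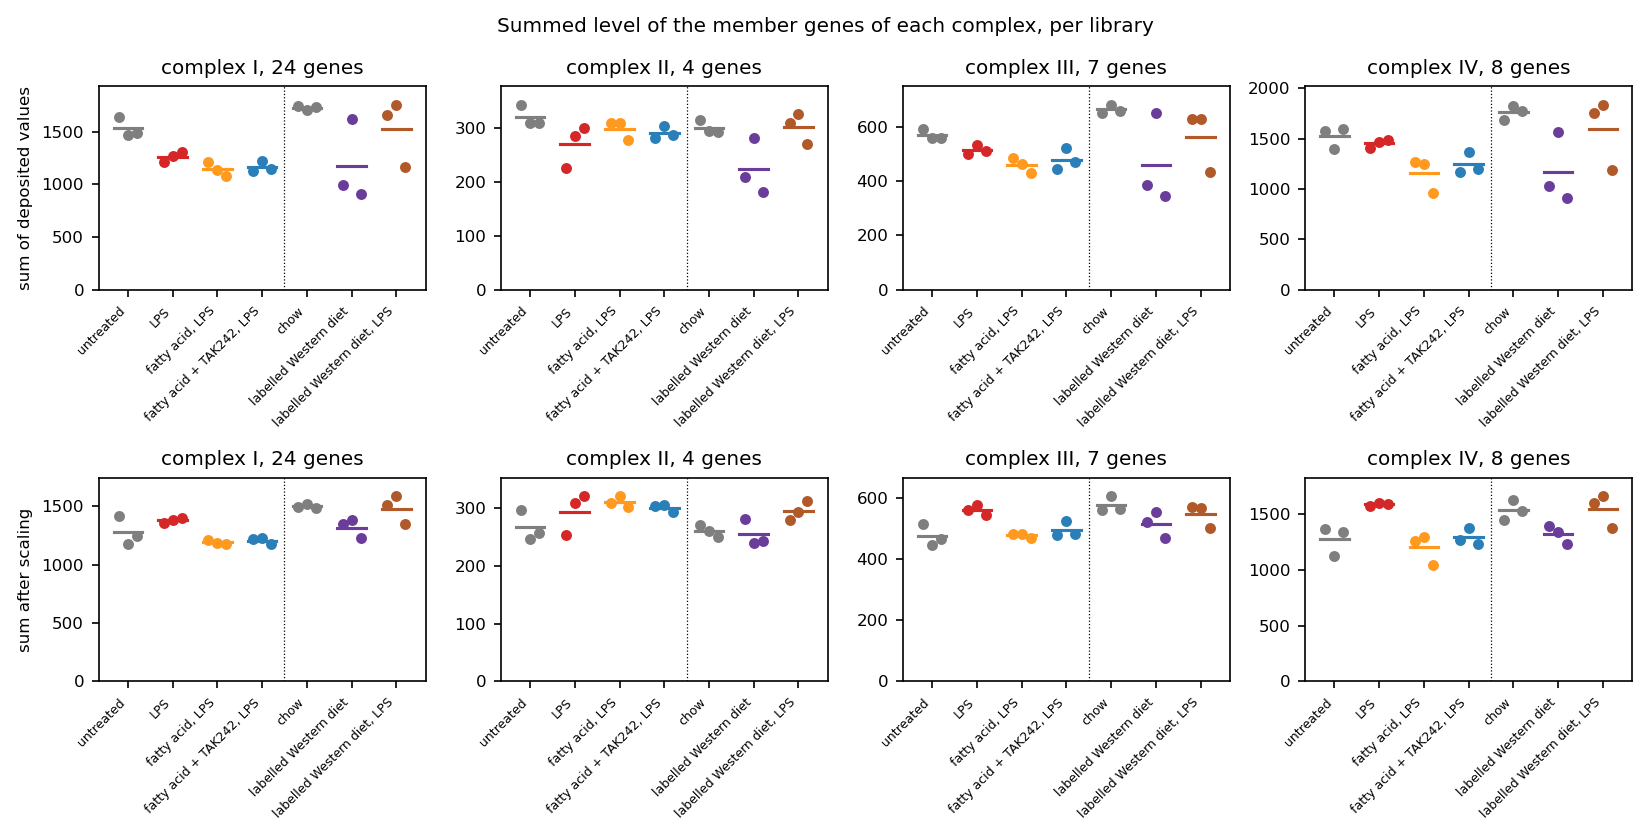
Summed value of the member genes of each complex in each library (points) with the group mean (line), as deposited (top) and after scaling between libraries (bottom); the dotted line parts the fatty acid table (left) from the Western diet table (right). Deposited complex IV sums are 956 to 1264 after fatty acid and 1402 to 1484 with LPS alone, and in the group labelled Western diet replicate 2 stands above the other 2 libraries in all 4 complexes as deposited.

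The first comparison asks how LPS alone changed the members in cells of chow-fed mice. On deposited values most called subunits were lower, in a smaller share than among all genes: 15 of 43 (34.9%) were lower and 1 higher, where 47.9% of all 10476 genes tested were called lower and 13.8% higher (limma on log2(value + 1), Benjamini-Hochberg adjusted p under 0.05). The median log2 change of the members was -0.18 and that of all genes -0.31. After scaling between libraries, 13 members were higher and 3 lower (background 27.2% and 26.9%), and the median was 0.20 against 0.015 for all genes. The direction of most members thus depends on the scaling, and 4 had the same call both ways: Sdha, Ndufs8 and Ndufs1 lower and Cox5a higher. With GC content, transcript length and exon number also corrected for, 17 members were higher and 3 lower (background 29.8% and 27.2%). Untreated libraries carried scaling factors of 1.15 to 1.25 and LPS libraries 0.893 to 0.936.

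In complex II, Sdha and Sdhb differed in their response. Sdha, the flavoprotein that oxidizes succinate, stood at 109, 106 and 103 in untreated libraries and at 51.6, 57.2 and 59.9 with LPS alone. Every LPS library was far below every untreated one, a log2 change of -0.91 ± 0.083 (SE; limma adjusted p = 3.71e-06), and scaled -0.52 ± 0.083 (SE; limma adjusted p = 0.000326). Sdhb, the iron-sulfur subunit that passes the electrons on, stood at 160.2, 135 and 142 untreated and 130.3, 177 and 190.2 with LPS. Its groups overlapped as deposited, with LPS replicate 1 the lowest of the 6 libraries, and the change was 0.17 ± 0.13 (SE; limma adjusted p = 0.29); scaled, Sdhb was higher by 0.56 ± 0.12 (SE; limma adjusted p = 0.00315). The membrane anchors Sdhc and Sdhd were lower on deposited values, Sdhd from 51.0, 43.7 and 41.5 to 28.3, 32.8 and 32.5 (-0.53 ± 0.10 SE, limma adjusted p = 0.000925), and were not called once scaled (Sdhc -0.0013, Sdhd -0.15; limma adjusted p = 0.988 and 0.216). The ratio of Sdha to Sdhb within a library does not depend on scaling: it was 0.678, 0.786 and 0.729 in untreated libraries, 0.396, 0.323 and 0.315 with LPS alone, 0.323, 0.382 and 0.385 after fatty acid and 0.358, 0.347 and 0.316 with TAK242. Each of the 9 libraries given LPS in this table was below each of the 3 that were not.

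**Figure D2:**
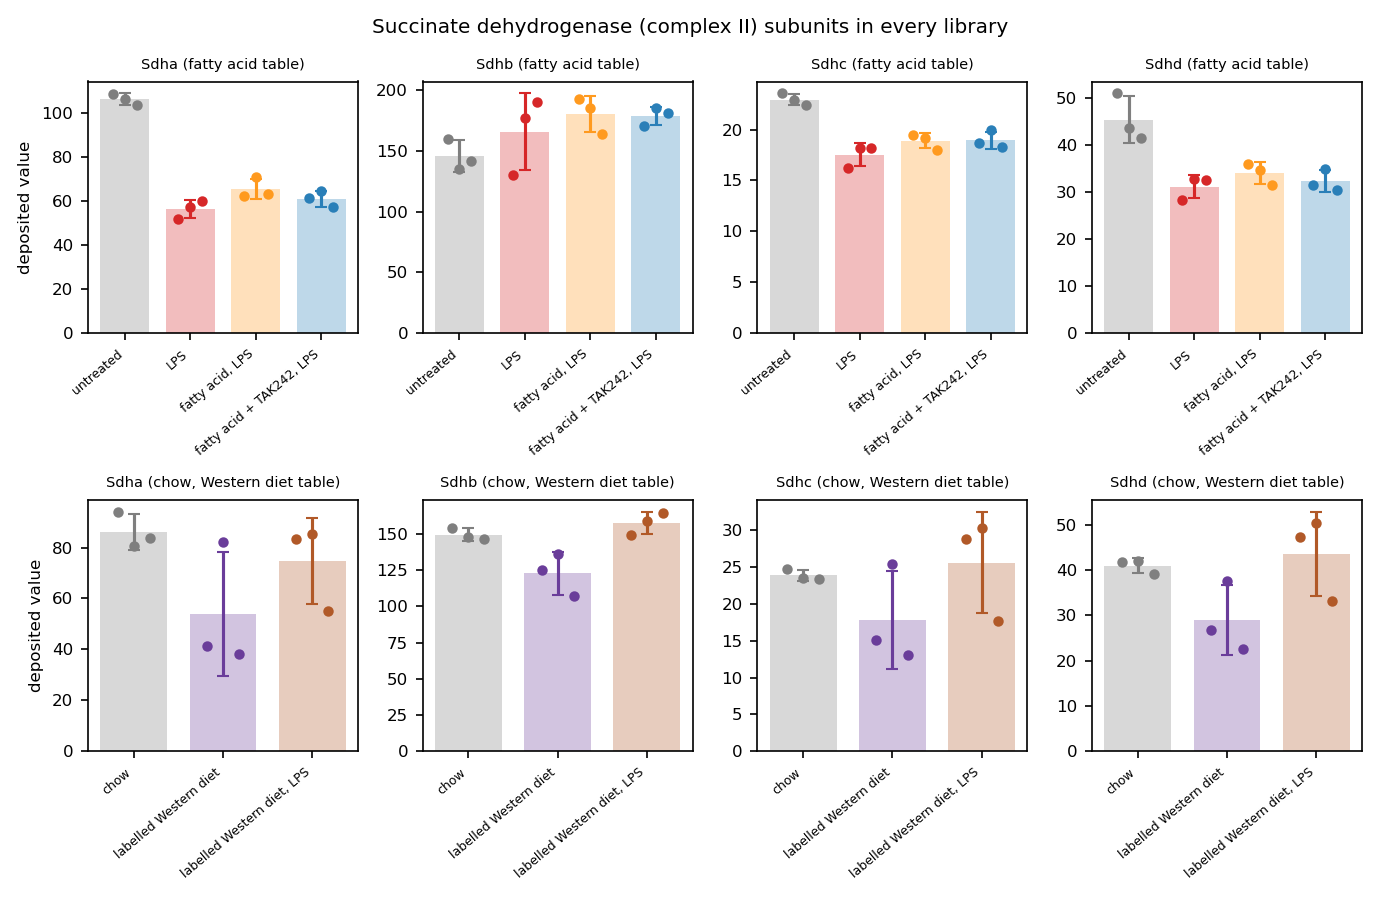
Deposited value of the 4 complex II subunits in each library (points), with the group mean (bar) and SD (error bar), n = 3. Sdha is at 51.6 to 70.6 in all LPS-treated libraries of the fatty acid table against 103 to 109 untreated, while Sdhb overlaps between the groups.

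In complex I, 9 of 24 members were lower and 0 higher as deposited, and 2 lower and 7 higher once scaled. Ndufs8, an iron-sulfur subunit of the peripheral arm, fell from 60.0, 51.6 and 50.9 to 28.1, 34.0 and 33.5, with no overlap (-0.75 ± 0.10 SE, limma adjusted p = 9.4e-05; scaled -0.37, limma adjusted p = 0.00698). Against Ndufs3, another core subunit of the same arm, its ratio was 1.33, 1.22 and 1.15 untreated and 0.728, 0.713 and 0.604 with LPS. Ndufs1, the largest iron-sulfur subunit, stood at 26.8, 27.0 and 51.7 untreated and 13.4, 16.3 and 13.0 with LPS, a change of -1.18 ± 0.29 (SE; limma adjusted p = 0.00444). Untreated replicate 3 was far above the other untreated libraries, and without it the change was -0.88 ± 0.26 (SE; limma adjusted p = 0.0162). Its call is lost when GC content, transcript length and exon number are corrected for, and its exons overlap those of Eef1b2 on the opposite strand, which stood at 53.0 to 148. Ndufs4, an accessory subunit added late in assembly, stood at 29.8, 26.1 and 25.8 untreated and 29.7, 31.5 and 33.1 with LPS, where replicate 1 overlapped the untreated range. It was not called as deposited (0.20 ± 0.084 SE, limma adjusted p = 0.0572) and was higher once scaled (0.58 ± 0.082 SE, limma adjusted p = 0.000143). Ndufb5, an accessory subunit, had the other largest rise by the naming rule (0.11 ± 0.24 SE, limma adjusted p = 0.711), with 19.3, 40.7 and 41.8 untreated and 37.3, 34.8 and 32.2 with LPS; without untreated replicate 1, which stood alone, it was -0.24 ± 0.11 (SE; limma adjusted p = 0.0869).

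In complex III, 2 of 7 members were lower as deposited, Uqcrfs1 and Uqcrh, and none higher; once scaled 2 were higher, Uqcrc2 and Cyc1. Uqcrh, the hinge protein that holds cytochrome c1, stood at 186, 162 and 168 untreated and 136, 132 and 135 with LPS, a fall without overlap (-0.35 ± 0.077 SE, limma adjusted p = 0.00235) that was 0.035 and not called once scaled (limma adjusted p = 0.76). Cyc1, cytochrome c1, stood at 51.5, 53.6 and 49.6 untreated and 53.5, 55.7 and 54.4 with LPS, where the ranges just overlapped (0.08 ± 0.075 SE, limma adjusted p = 0.38; scaled 0.46 ± 0.059 SE, limma adjusted p = 6.49e-05). In complex IV, Cox5a was higher and Cox7b lower as deposited, and 3 members were higher once scaled: Cox5a, Cox7a2 and Cox8a. Cox5a, which joins the catalytic subunit early in assembly, rose from 246, 229 and 242 to 249, 295 and 309 (0.24 ± 0.094 SE, limma adjusted p = 0.0418; scaled 0.63 ± 0.087 SE, limma adjusted p = 0.000111). The deposited call of Cox5a is not held by all libraries: without any of untreated replicates 1, 2 or 3 or LPS replicates 2 or 3 its adjusted p was between 0.0585 and 0.138. Cox7b, a small accessory subunit, fell from 142, 128 and 129 to 108, 101 and 101 (-0.36 ± 0.074 SE, limma adjusted p = 0.00158), and scaled it was 0.026 (limma adjusted p = 0.807). Of the 16 deposited calls, 13 held whichever library of the comparison was left out; the other 3 were Cox5a, Ndufs6 (lost without LPS replicates 1 or 2 or untreated replicates 1 or 3) and Uqcrfs1 (lost without any but untreated replicate 2).

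**Figure D3:**
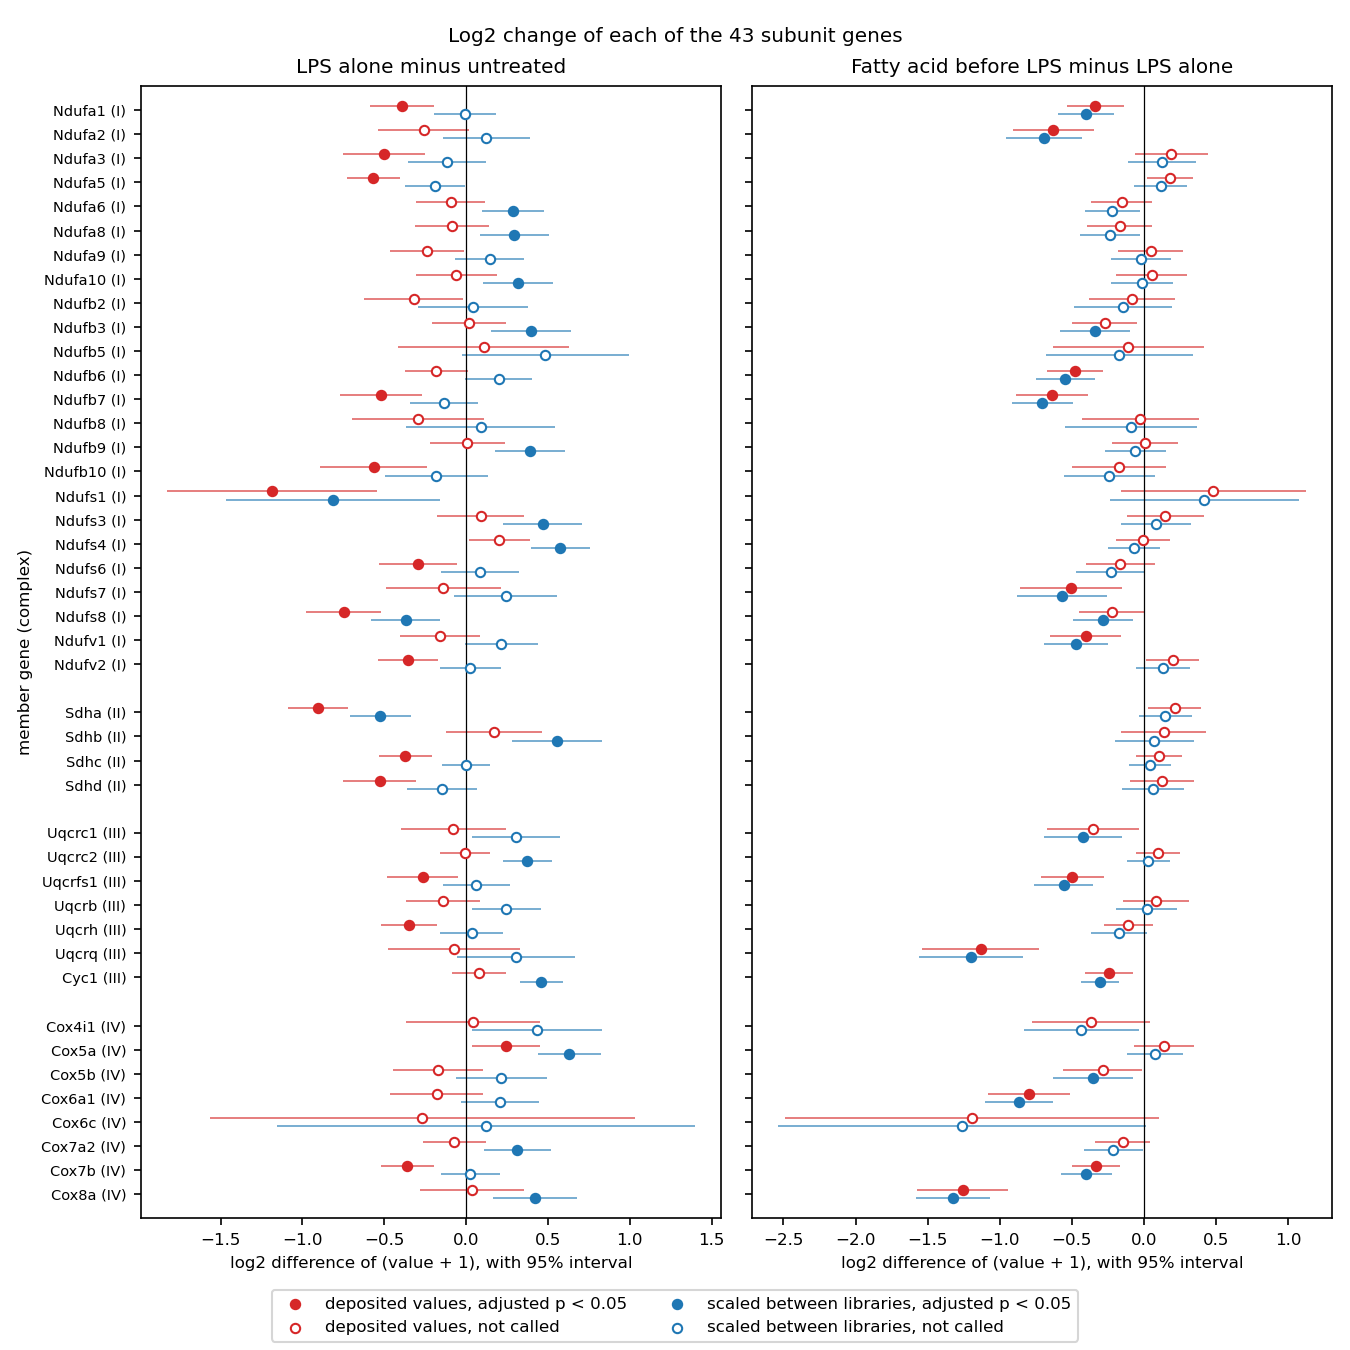
Log2 difference of (value + 1) for each member with its 95% interval, for LPS alone minus untreated (left) and fatty acid before LPS minus LPS alone (right), on deposited values (red) and after scaling (blue); filled points have an adjusted p under 0.05. Scaling moves the left panel to the right (members' median -0.18 to 0.20) and the right panel slightly to the left (-0.16 to -0.22).

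Fatty acid before LPS was compared with LPS alone to ask what the earlier lipid load changed in stimulated cells. Of the 43 members 12 (27.9%) were lower and 0 higher, beside 15.3% lower and 21.8% higher among all 10476 genes. The 12 were in complexes I, III and IV. Complex II had 0 of 4 lower, too few members to tell it apart from the share of all genes. Once scaled, 16 were lower (37.2%) and 0 higher, beside 19.9% in each direction. The members' median was -0.16 as deposited and -0.22 scaled, and that of all genes 0.057 and 0.0072. All 12 deposited calls were among the scaled ones, and 11 of them (all but Ndufs7) were also called after the correction for GC content, transcript length and exon number, which called 11 lower and 2 higher (background 19.2% and 19.4%).

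Complex IV held the largest fall that passed the test. Cox8a, a small membrane subunit, stood at 61.9, 70.4 and 72.9 with LPS alone and at 35.0, 26.3 and 23.7 after fatty acid. The lowest LPS library was well above the highest fatty acid library, a log2 change of -1.26 ± 0.14 (SE; limma adjusted p = 0.000359), which was -1.32 once scaled. Cox6a1, the widely expressed isoform of another small subunit, stood at 109.5, 112 and 111 and 79.1, 60.0 and 53.6, again apart (-0.80 ± 0.13 SE, limma adjusted p = 0.00145). Cox7b fell from 108, 101 and 101 to 84.5, 82.6 and 78.5 (-0.33 ± 0.074 SE, limma adjusted p = 0.00615). Cox5a went the other way without passing the test, at 249, 295 and 309 with LPS alone and 310.1, 332 and 296 after fatty acid (0.14 ± 0.094 SE, limma adjusted p = 0.263), so that the ratio of Cox8a to Cox5a within a library was 0.248, 0.239 and 0.236 with LPS alone and 0.113, 0.0794 and 0.0800 after fatty acid. Cox6c, another small subunit, had a mean change of -1.19 ± 0.59 (SE; limma adjusted p = 0.133) that came from a single library: its values were 222, 213 and 29.2 after fatty acid against 271, 256 and 245 with LPS alone, and without replicate 3 the change was -0.24 ± 0.10 (SE; limma adjusted p = 0.0925).

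In complex III, 3 of 7 members were lower. Uqcrq, a small subunit that lies by cytochrome b, stood at 49.9, 62.8 and 55.3 with LPS alone and 34.7, 22.2 and 19.96 after fatty acid, with no overlap (-1.13 ± 0.18 SE, limma adjusted p = 0.0015), and its ratio to the core protein Uqcrc2 went from 0.736, 0.884 and 0.765 to 0.458, 0.284 and 0.279. Uqcrfs1 fell from 4.63, 5.02 and 4.74 to 3.28, 3.34 and 2.72 (-0.50 ± 0.10 SE, limma adjusted p = 0.00357), at the lowest level of any member. Cyc1 fell from 53.5, 55.7 and 54.4 to 48.7, 47.4 and 42.1 (-0.24 ± 0.075 SE, limma adjusted p = 0.0278), a call lost without LPS replicates 2 or 3 or fatty acid replicates 2 or 3. The core protein Uqcrc2 had the largest rise in the complex, at 67.7, 71.1 and 72.3 and 75.8, 78.1 and 71.6, and was not called (0.094 ± 0.069 SE, limma adjusted p = 0.309).

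In complex I, 6 of 24 members were lower: the accessory subunits Ndufa1, Ndufa2, Ndufb6 and Ndufb7, the core subunit Ndufs7 close to the ubiquinone site, and Ndufv1, which binds FMN and takes the electrons from NADH. Ndufb7 stood at 59.0, 64.1 and 66.2 with LPS alone and 47.7, 38.0 and 35.5 after fatty acid (-0.64 ± 0.11 SE, limma adjusted p = 0.00225), and Ndufa2 at 105, 97.4 and 90.4 and 71.5, 63.2 and 54.3 (-0.63 ± 0.13 SE, limma adjusted p = 0.00383). Both pairs of groups were apart. Ndufa1 went from 79.7, 75.2 and 79.0 to 60.9, 65.6 and 58.2 and Ndufb6 from 43.6, 43.9 and 43.6 to 31.9, 31.6 and 29.5, changes of -0.34 and -0.48 (limma adjusted p = 0.013 and 0.00251). Ndufs7 went from 46.0, 59.4 and 58.9 to 47.4, 35.1 and 33.0, where fatty acid replicate 1 lay above LPS replicate 1, and its call (-0.50 ± 0.16 SE, limma adjusted p = 0.0297) was lost without LPS replicates 2 or 3 or fatty acid replicates 2 or 3. Ndufv1 went from 24.96, 27.8 and 26.0 to 21.7, 18.7 and 18.4 (-0.41 ± 0.11 SE, limma adjusted p = 0.0156), a call lost without LPS replicate 2 or fatty acid replicates 2 or 3. The largest rises were those of Ndufs1 (0.48 ± 0.29 SE, limma adjusted p = 0.217; without fatty acid replicate 1, at 28.2 the only high library, 0.25 ± 0.30 SE, limma adjusted p = 0.558) and the iron-sulfur subunit Ndufv2 (0.20 ± 0.082 SE, limma adjusted p = 0.0819), neither called.

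All 4 members of complex II had changes above 0, from 0.10 to 0.21, and none was called. Sdha, with the largest of them, stood at 51.6, 57.2 and 59.9 with LPS alone and 62.1, 70.6 and 63.1 after fatty acid (0.21 ± 0.083 SE, limma adjusted p = 0.0668), with the fatty acid libraries higher and no overlap.

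**Figure D4:**
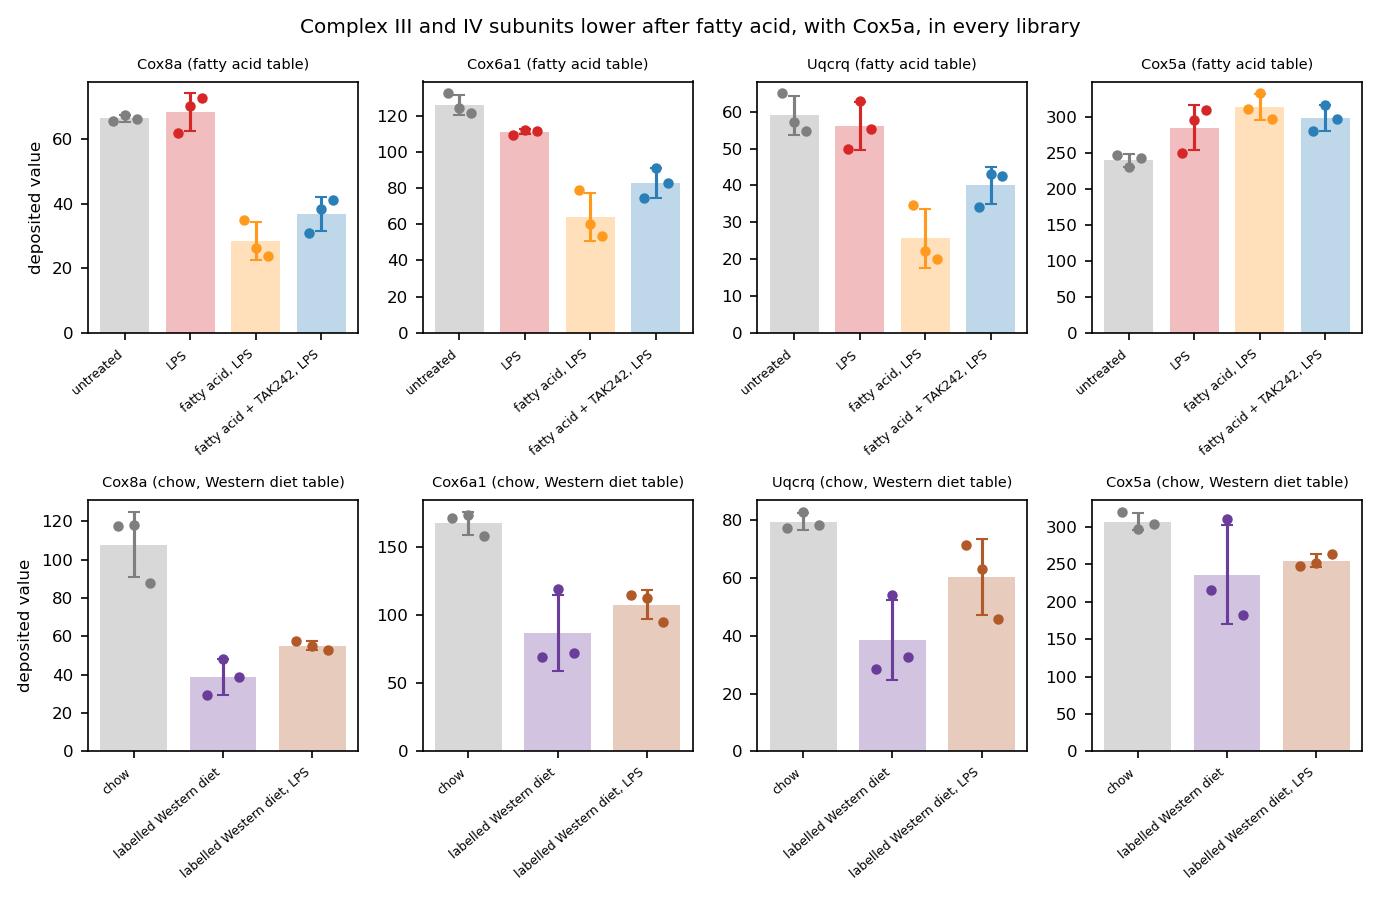
Deposited value of Cox8a, Cox6a1, Uqcrq and Cox5a in each library (points), with the group mean (bar) and SD (error bar), n = 3, in the fatty acid table (top) and the Western diet table (bottom). Cox8a is at 23.7 to 35.0 after fatty acid against 61.9 to 72.9 with LPS alone, and is below chow in all 6 libraries labelled Western diet.

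The changes after fatty acid ran with exon number across the members. Counting exons in the longest coding transcript, the 3 members with 2 exons (Cox8a, Uqcrq and Uqcrfs1) had a median scaled log2 change of -1.20, the 9 with 3 exons -0.40, the 11 with 4 exons -0.18, the 15 with 5 to 10 exons -0.072 and the 5 with 11 or more 0.029. Over all genes the medians in these classes were -0.23, -0.11, -0.043, -0.01 and 0.044, where the first class holds genes with 1 to 2 exons. Across the 43 members, which share their libraries, Spearman's rho of the scaled change was 0.58 with exon number, 0.35 with transcript length and -0.38 with GC content; across 9321 genes it was 0.12, 0.19 and -0.27. With LPS alone the rho with exon number was 0.061 across members. With a smooth trend on these 3 properties removed over all genes, Cox8a was at -0.94 and Uqcrq at -1.06. The members' median was -0.095 after this correction, against -0.22 with scaling alone, and the lower calls went from 16 to 11.

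**Figure D5:**
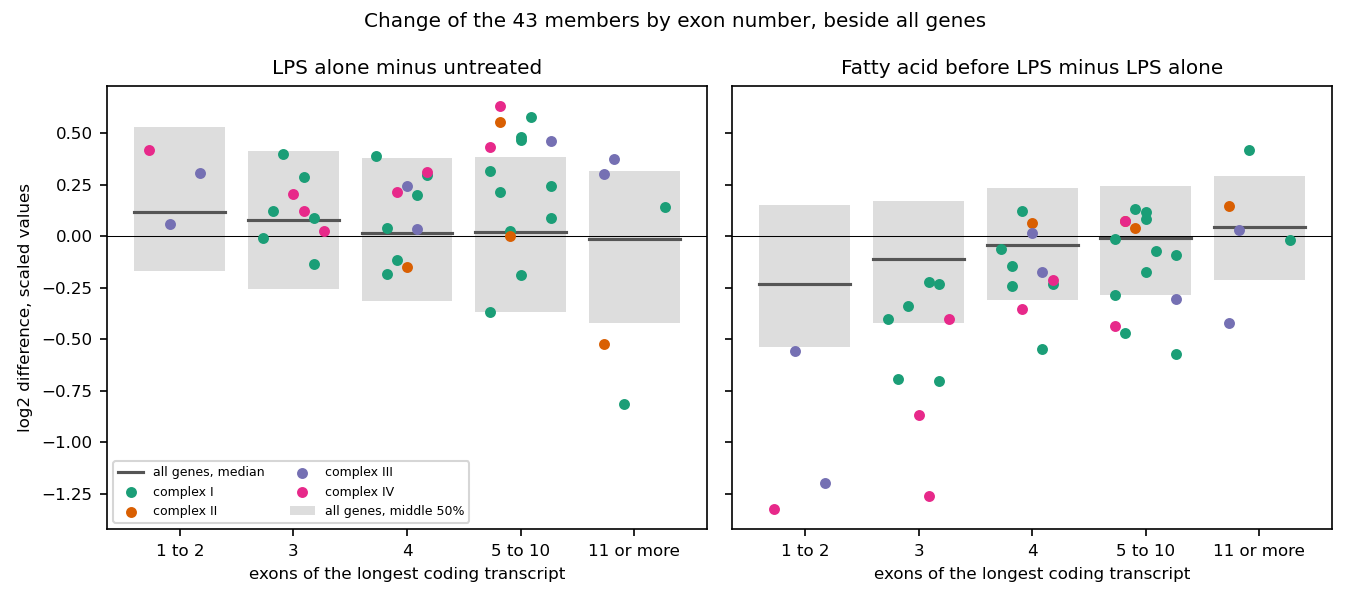
Scaled log2 difference of the 43 members (points, coloured by complex) by the exon number of the longest coding transcript, for LPS alone minus untreated (left) and fatty acid before LPS minus LPS alone (right); grey bars span the middle 50% of all genes in the class and the dark line is their median. In the right panel members with 2 exons have a median of -1.20 and those with 11 or more 0.029.

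TAK242 was given with fatty acid to block TLR4 during the lipid load. Against fatty acid alone, 0 members were higher and 0 lower by limma (background 3.01% and 1.68%), and 8 had an unadjusted p under 0.05, as did 23.1% of all genes. The 3 members with the largest called falls after fatty acid had means between those of the fatty acid and LPS groups. They were picked for low values in these same fatty acid libraries, so this order of means is partly set by the choice. Cox8a was 30.8, 38.5 and 41.1 with TAK242, with replicate 1 inside the fatty acid range (0.37 ± 0.14 SE, limma adjusted p = 0.153). Cox6a1 was 74.5, 91.2 and 82.5, with replicate 1 also inside it (0.37 ± 0.13 SE, limma adjusted p = 0.117). Uqcrq was 34.2, 43.2 and 42.6, where replicate 1 again overlapped the fatty acid libraries (0.66 ± 0.18 SE, limma adjusted p = 0.0691). Once scaled, Uqcrq alone of the 43 was called (0.65 ± 0.16 SE, limma adjusted p = 0.0413; background 4.36% higher and 2.99% lower). With the correction, 2 members were higher and 0 lower (background 3.26% and 2.90%). Ndufb7 had the largest rise in complex I, at 45.8, 52.6 and 49.6 with TAK242 (0.29 ± 0.11 SE, limma adjusted p = 0.16). Cox6c showed 1.01 ± 0.59 (SE; limma adjusted p = 0.332), which was 0.056 ± 0.10 (SE; limma adjusted p = 0.806) without fatty acid replicate 3.

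Against LPS alone, the TAK242 group had 1 member lower, Cox8a, and 0 higher (background 1.84% and 4.05%). Its change was -0.88 ± 0.14 (SE; limma adjusted p = 0.0254), with no overlap between the groups, and the call is lost without TAK242 replicates 1 or 3 or LPS replicate 2. Once scaled, 6 members were lower and 0 higher (background 5.33% and 4.32%), and with the correction 0 members were higher and 2 lower (background 3.06% and 3.77%). This comparison and the previous ones share libraries, and no difference between fatty acid with and without TAK242 in their distance from LPS alone was tested beyond the direct comparison above.

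Set against untreated cells, the pretreated groups differ in both LPS and pretreatment. After fatty acid and LPS 26 members were lower and 1 higher (background 44.9% and 15.2%), and with TAK242 27 and 1 (43.9% and 14.1%). Leaving out any single library kept 21 of these 27 calls after fatty acid and 19 of 28 with TAK242. By complex, the fatty acid group had 14 of 24, 3 of 4, 4 of 7 and 5 of 8 members lower. Once scaled the counts were 12 lower and 9 higher after fatty acid and 8 and 8 with TAK242 (background 29.1%, 27.3%, 26.7% and 25.8%). After fatty acid, with the correction, 14 members were higher and 11 lower (background 29.5% and 28.0%). In the TAK242 group 13 members were higher and 4 lower (background 27.6% and 26.7%) with it. In the fatty acid group 12 members were lower both ways: Ndufa1, Ndufa2, Ndufb6, Ndufb7, Ndufb10, Ndufs8, Sdha, Uqcrfs1, Uqcrq, Cox6a1, Cox7b and Cox8a. The single higher member was Cox5a in both groups, at 0.39 ± 0.094 (SE; limma adjusted p = 0.00439) and 0.31 ± 0.094 (SE; limma adjusted p = 0.0144), and it was higher once scaled too; the call with TAK242 was lost without untreated replicate 2 or TAK242 replicate 2. Cox8a against untreated was -1.22 after fatty acid and -0.84 with TAK242 (limma adjusted p = 2.6e-05 and 0.000442), Sdha -0.69 and -0.79 (limma adjusted p = 2.96e-05 and 1.2e-05). Cox6c against untreated was -1.46 ± 0.59 (SE; limma adjusted p = 0.0514) after fatty acid, and -0.51 ± 0.10 (SE; limma adjusted p = 0.00165) without replicate 3, where it was called.

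In the Western diet table, libraries with the same label did not stay together, so counts by label are given first and libraries then one at a time. Against chow, the libraries labelled Western diet had 0 members higher and 0 lower by limma (background 0.0678% and 0.165% of 10331 genes), with 17 members at an unadjusted p under 0.05, as were 27.3% of all genes, and a median of -0.59, beside -0.32 for all genes. On deposited values without Western diet replicate 2, 33 members were lower, where 44.4% of all genes were lower and 12.1% higher. Scaling factors were 0.740 in Western diet replicate 1, 0.741 in replicate 3 and 1.12 to 1.17 in chow. No scaled count without replicate 2 is given, here or for the next pair. With all libraries kept and scaled, 0 members were higher and 0 lower (background 0.0871% and 0.136%), and with the correction 0 members were higher and 0 lower (background 0.0650% and 0.0541%). Libraries labelled Western diet with LPS, set against those labelled Western diet, also gave 0 and 0 (background 0.678% and 0.281%; 5 at an unadjusted p under 0.05, against 17.2% of all genes), and 24 higher without Western diet replicate 2 (background 29.8% higher and 9.72% lower). For this pair, once scaled, 0 members were higher and 0 lower (background 1.46% and 0.532%), and with the correction 0 members were higher and 0 lower (background 1.53% and 0.606%). Sdha stood at 94.0, 80.6 and 83.9 in chow, 41.5, 82.0 and 38.0 in the libraries labelled Western diet and 83.2, 85.4 and 55.2 in those labelled with LPS as well. Western diet replicates 1 and 3 and Western diet LPS replicate 3, low in Sdha, are the 3 libraries of this table in which Ccl5 was high. The ratio of Sdha to Sdhb was 0.609, 0.544 and 0.574 in chow, 0.332, 0.601 and 0.355 in Western diet and 0.557, 0.537 and 0.335 in Western diet with LPS, and that of Ndufs8 to Ndufs3 was 1.803, 1.54 and 1.46, 0.489, 1.18 and 0.428 and 1.55, 1.45 and 0.704. Both ratios were thus lowest in the same 3 libraries, in or near the range seen with LPS in the fatty acid table. As the labels give these libraries no such grouping, no test was made.

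Some members were below the 3 chow libraries of this table in every library from Western diet donors, whatever its LPS label. In 7 of 43 members (16.3%) all 6 such libraries lay below all 3 chow libraries, where 8.82% of the 10331 genes did; 0 members lay wholly above, against 2.60% of genes. They were Ndufa2, Ndufa6, Ndufs7, Uqcrfs1, Uqcrq, Cox6a1 and Cox8a, and all but Uqcrfs1 were also below after scaling (background 6.45%). Ndufs4 alone lay wholly above after scaling (background 4.64%). Cox8a stood at 117, 118 and 88.0 in chow, 29.5, 48.1 and 38.6 in Western diet and 57.6, 55.1 and 52.6 in Western diet with LPS. Cox6a1 stood at 171, 174 and 158 in chow, 69.3, 119 and 72.5 in Western diet and 115, 113 and 95.3 in Western diet with LPS. Uqcrq stood at 77.3, 83.0 and 78.6, 28.6, 54.3 and 32.8 and 71.7, 63.2 and 45.8 in the same order. For these 3 members the chow libraries here stood above the untreated chow libraries of the fatty acid table. There Cox8a was 65.6, 67.7 and 66.1, Cox6a1 132, 124 and 121 and Uqcrq 64.9, 57.1 and 54.9. Some Western diet libraries lay within or near those untreated values, and the difference between the 2 chow groups was not tested. Cox5a was 320.4, 297 and 304 in chow, 216, 310.5 and 182 in Western diet and 248, 252 and 264 in Western diet with LPS. As deposited it was below chow in all but Western diet replicate 2, which lay inside the chow range. Once scaled it was 275, 264 and 261 in chow, 293, 264 and 246 in Western diet and 225, 228 and 305 in Western diet with LPS. Western diet replicate 1 and Western diet LPS replicate 3 then lay above chow. These 7 members hold 6 of the 12 that were lower after fatty acid in the other table (50% of the 12 and 85.7% of the 7). Of the genes tested in both tables, 16.1% of the 1509 lower after fatty acid and 29.3% of the 828 below chow were in both. Once scaled, 5 of the 16 members lower after fatty acid (31.2%) were among the 6 below chow (83.3%), where the shares over all genes were 10.9% and 36.6%. Of the 6 members in both as deposited, Cox8a, Uqcrq and Uqcrfs1 have 2 exons, Cox6a1 and Ndufa2 have 3 and Ndufs7 has 9. Genes with few exons had the lowest medians after fatty acid, and these shares were not matched for exon number. The tables share no library. This count was added after seeing the values, and diet cannot be told apart from whatever else sets these 6 libraries off from the 3 of chow.

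The other genes of the pathway, from lists chosen with earlier results in view, gave the following counts of lower and higher genes, to be read against all genes (47.9% lower and 13.8% higher with LPS alone, 15.3% and 21.8% after fatty acid). Of 18 tested further subunits of complexes I, III and IV, 13 were lower and 0 higher with LPS alone, among them Ndufa4, a subunit now placed in complex IV (-1.04, limma adjusted p = 1.93e-05), and 6 lower and 1 higher after fatty acid. The fatty acid falls in that list included the small complex III subunit Uqcr11 (-0.82, limma adjusted p = 0.0015) and the complex I subunit Ndufa13 (-0.72, limma adjusted p = 0.00229). Of 15 ATP synthase genes, 11 were lower with LPS alone and 4 after fatty acid, with none higher in either. Of 14 tricarboxylic acid cycle genes, 8 were lower and 1 higher with LPS alone, with Idh2 at -1.60 (limma adjusted p = 1.02e-06) and Mdh2 at 0.62 (limma adjusted p = 0.0034), and 2 lower and 0 higher after fatty acid. Of 37 assembly factors, 12 were lower and 3 higher with LPS alone, and 7 and 8 after fatty acid. The copper chaperone gene for complex IV, Cox17, was higher with LPS (0.77, limma adjusted p = 0.0113) and lower after fatty acid (-1.02, limma adjusted p = 0.00593). Of 10 regulators of mitochondrial biogenesis, 5 were lower and 1 higher with LPS alone, with the mitochondrial transcription factor gene Tfam at -0.63 (limma adjusted p = 0.000148) and the ETS gene Gabpa at -0.85 (limma adjusted p = 0.00253), and 1 was higher after fatty acid, Tfam (0.31, limma adjusted p = 0.0238). Of 8 tissue-restricted isoforms, 2 were abundant enough to test, and Cox7a1, the muscle form, was lower with LPS (-2.09, limma adjusted p = 6.1e-06). The scaled counts have another base: of all 10476 genes, 2822 were lower and 2847 higher with LPS alone. After fatty acid 2084 were lower and 2084 higher. Once scaled, the lower and higher counts with LPS alone were 4 and 2 for the further subunits, 2 and 1 for ATP synthase, 4 and 3 for the cycle, 7 and 10 for assembly factors and 3 and 2 for the regulators. The scaled list counts after fatty acid were 9 and 0, 6 and 0, 5 and 0, 9 and 8, and 0 and 1 in the same order.

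Macrophage markers were high in every group: the 8 summed to 9667 to 10788 in untreated, 10322 to 10657 in LPS, 8741 to 9792 in fatty acid and 9352 to 10780.0 in TAK242 libraries, and to 10213 to 12032 in chow, 5847 to 15418 in Western diet and 9469 to 11629 in Western diet with LPS. Single markers moved within that sum, 5 higher and 1 lower with LPS alone and 5 higher and 3 lower after fatty acid. The marker Lyz2 was the top gene of 3 libraries. It held 2.76% and 2.51% of the library sum in chow replicates 4 and 6 and 3.78% in Western diet replicate 2. In these libraries most of the macrophage sum was thus 1 gene, and the sum says little about the other markers. Markers of other cells moved with the comparisons at far lower levels. The 8 stromal markers summed to 21.2 to 33.2 untreated, 37.7 to 74.0 with LPS alone, 17.4 to 21.8 after fatty acid, 28.3 to 34.2 with TAK242, 1.95 to 3.46 in chow, 9.85 to 11.3 in Western diet and 4.88 to 6.79 in Western diet with LPS. Of the 6 tested in the fatty acid table, 5 rose with LPS alone and 5 fell after fatty acid. The 8 neutrophil markers summed to 35.0 to 51.9 untreated, 119.9 to 384 with LPS and 79.8 to 90.2 after fatty acid, with Ly6g listed at 0 in all 3 LPS libraries. Their sum was 65.1 to 88.8 with TAK242, 35.7 to 57.0 in chow, 25.9 to 70.6 in Western diet and 75.7 to 79.9 in Western diet with LPS. Of 5 tested in the Western diet table, 1 was lower in Western diet against chow (0 once scaled). In Western diet with LPS against Western diet 1 was higher (3 once scaled). B cell markers summed to 5.18 to 5.98 untreated and 0.0335 to 0.0471 with LPS. In the Western diet table they summed to 6.02 to 8.28 in chow, 0.160 to 2.92 in Western diet and 0.172 to 4.32 in Western diet with LPS, so that all 6 libraries were below chow here too. Of the 4 B cell markers, 1 was abundant enough to test in each table. Its log2 change with LPS alone was -2.68, and the untreated sum rests mostly on that gene. T cell markers summed to at most 0.180 and erythroid markers to at most 0.179 in the fatty acid table. The part of these cells in the members' changes was not tested. For some members reads may also be shared with an overlapping gene: Ndufb8 lies with Gm20538 and Ndufb2 with Gm42420 on the same strand, and Ndufb9 shares exons with Gm49356. Exons of protein-coding genes on the opposite strand overlap Ndufa2, Ndufa3, Ndufb2, Ndufb5, Ndufb6, Ndufs1, Ndufs3, Ndufs6, Uqcrb, Uqcrc2, Cox4i1 and Cox6c, and a noncoding gene overlaps Ndufa9 and Cox5a. The values of these members are uncertain to that extent.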

How the data were processed

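RNA-seq was done on 21 libraries in 7 groups of 3. The tools named, per the submitters' processing notes, are HISAT2 2.0.5, Trim Galore 0.4.1, FastQC 0.11.5 and CASAVA 1.8.2. The quantification step is not given in the sources used here. The authors deposited 1 table of 12 and 1 of 9 libraries whose unit is not named; the values are treated as deposited values that are not whole counts. In the fatty acid table, 46895 of 50645 genes have the positions GENCODE gives on GRCm38.

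In each table the genes tested reached 1 in 3 libraries or more (10476 and 10331 genes). The test was limma 3.58.1 (trend) in R 4.3.3 on log2(value + 1), with all libraries of the table in the fit and Benjamini-Hochberg adjustment over all genes tested. A fold change on this scale understates the change of low genes. Tables were tested separately. The test was tried on simulated data with 200 changed genes: for LPS alone against untreated 85% of the 2-fold changes and 98% of the 4-fold ones were recovered, and for Western diet by label against chow 18% and 55%. False calls were 10 of 193 for LPS alone against untreated and 2 of 75 for Western diet by label against chow. They were 17 of 203 for fatty acid before LPS against LPS alone and 16 of 204 for TAK242 against fatty acid. Alternatives were median-ratio scaling between libraries, a pseudocount of 0.1, no filter, a filter at 5, a fit on the compared libraries alone, a replicate block and leaving out each library; a correction for GC content, transcript length and exon number, the block with scaling, and the counts without overlap against chow were added after seeing the data.

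Members named with values in every library were, in each complex, the highest member, those with the largest rise and fall in each comparison of the fatty acid table (2 each way in complex I for the LPS and fatty acid comparisons), and those called the same way with and without scaling. Sdhd with LPS alone, Cox6c after fatty acid, the ratios within a library and the members given for the Western diet table were chosen after their values were seen. The members and lists were chosen with earlier results of these data known.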

Additional observations from a re-analysis of the deposited data

How the results depend on the processing

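With median-ratio scaling, LPS alone against untreated gave 13 members higher and 3 lower in place of 1 and 15, with a median of 0.20 in place of -0.18, and the same values came with the replicate block and scaling together; with the correction for GC content, transcript length and exon number it gave 17 and 3, and 0.21. Uqcrh moved from -0.35 to 0.035 with scaling, with or without the block, and 0.082 with the correction, and Cox7b from -0.36 to 0.026 and 0.075. The cause was not tested. With the replicate block alone, a fit on the 6 compared libraries or no filter, 0 members were higher with LPS. Fatty acid before LPS against LPS alone kept 0 members higher, except 2 with the correction, and TAK242 against fatty acid had 1 higher with scaling and 2 with the correction. TAK242 against LPS alone had 6 lower with scaling, with or without the block, 2 with the correction and 0 with only the 6 libraries compared. Against untreated, the fatty acid group had 9 higher with scaling, 8 with the block and scaling, 14 with the correction and 3 with only the 6 libraries, and 12, 12 and 11 lower in the first 3 of these, with medians of -0.087, -0.087 and 0.025 in place of -0.40. The TAK242 group had 8, 8, 13 and 2 higher, 8, 6 and 4 lower and medians of -0.076, -0.076 and 0.044 in place of -0.38. The Western diet median against chow was -0.19 with scaling and -0.075 with the correction, in place of -0.59.

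Leaving out each library in turn gave 0 to 3 members higher with LPS alone (3 without LPS replicate 1), 0 to 1 higher after fatty acid, 0 to 2 higher with TAK242 against fatty acid, and 0 to 1 lower with TAK242 against LPS alone. It gave 1 to 2 higher after fatty acid against untreated and 0 to 2 higher with TAK242 against untreated. By label it gave 0 to 33 members lower in Western diet against chow and 0 to 24 higher in Western diet with LPS against Western diet, the highest counts coming without Western diet replicate 2. The counts with a library left out are all on deposited values. Replicate numbers are shared between groups, but the deviations of same-numbered libraries correlated at -0.081 to 0.20 over 18 pairs in the fatty acid table and at -0.67 to 0.76, with both signs, over 3 in the Western diet table. The numbers were therefore not taken to pair the libraries. Western diet and chow share no number, so no block could be fitted there. Of 330 counts and medians over all alternatives 272 stayed within the range given to them, 53 moved and 5 changed sign, and of 840 values of named members 754 kept direction and side of the threshold, 36 lost the call, 44 gained it and 6 changed sign. With no read depth, the counting error of low members such as Uqcrfs1 is unknown.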
